A study of Mus musculus with 4 samples.

Results

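Insulin-like growth factor (IGF) genes of brain endothelial cells were examined in mouse embryos at embryonic day 18, namely the growth factor Igf1, its receptor Igf1r and the binding proteins Igfbp2, Igfbp3, Igfbp4, Igfbp5, Igfbp6 and Igfbp7. These 8 genes were taken by name from 17905 genes listed in the deposited tables. Of the 8, 6 were listed for every library and 2, Igfbp5 and Igfbp6, for 1 STINGECKO and 1 WT library only. RNA sequencing compared 2 libraries of genotype STINGECKO (STINGECKO 1 and 2) with 2 wild-type libraries (WT 3 and WT 5), each labelled C57BL/6, brain and endothelial cell. The series' title concerns STING, an adaptor of cytosolic DNA sensing, in endothelial cells, and the labels do not spell out what the genotype name stands for. No Cre driver and no deleted exon is named, and the design text speaks of triplicates where 2 libraries per genotype were analysed here. Nothing in the labels says that libraries of a genotype came from separate embryos, so a p-value sets the genotypes against the spread of these libraries alone, and that spread may be technical.

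IGF1 and IGF2 are secreted growth factors that signal through the IGF1 receptor, a receptor tyrosine kinase that feeds the PI3-kinase and AKT pathway. The binding proteins hold IGFs in fluids and matrix and set how much ligand reaches the receptor, and some also act on cells without IGF. In the brain, endothelial cells are a known source of IGFBP7, which lies in the vessel wall, while much of the local IGF1 comes from other cells, among them microglia.

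The proteins of Igfbp2, Igfbp3, Igfbp4 and Igfbp5 share cysteine-rich ends. Coding bases from both ends are shown as stretches that these genes have in common. Their presence in these genes was fixed by the choice. Each coding sequence was split at its middle codon, and on either side the longest run of codons whose first letters, all but the last of each codon, are shared by Igfbp2, Igfbp3, Igfbp4 and Igfbp5 was taken as a motif, with N for any base. Both motifs were then searched in frame on the coding strand, not on the other strand, in the longest coding sequence of 21584 mouse genes (GENCODE M21, GRCm38). Before the middle the run was 7 codons long, GANCCNGGNTGNGGNTGNTGN, and lies in the amino-terminal cysteine-rich domain. Capitals mark the motif, with 15 bases on either side in lower case.
Igfbp2: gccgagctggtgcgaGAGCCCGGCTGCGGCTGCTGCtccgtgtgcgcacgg
Igfbp3: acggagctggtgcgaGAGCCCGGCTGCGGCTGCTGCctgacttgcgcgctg
Igfbp4: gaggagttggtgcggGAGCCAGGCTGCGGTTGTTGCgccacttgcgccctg
Igfbp5: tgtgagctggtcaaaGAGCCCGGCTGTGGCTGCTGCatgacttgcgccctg
These stretches lie on chr1:72824757-72824807 (plus strand, Igfbp2), chr11:7213560-7213610 (minus strand, Igfbp3), chr11:99041629-99041679 (plus strand, Igfbp4) and chr1:72873960-72874010 (minus strand, Igfbp5), each within 1 coding exon. The motif starts at codons 65, 66, 50 and 49 of Igfbp2, Igfbp3, Igfbp4 and Igfbp5, counted from the start codon. It was found in 4 of the 21584 coding sequences (0.0185%), which are the genes that gave it, and its letters were not in Igfbp6, Igfbp7 or the relative Igfbp1.

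After the middle the longest shared runs were 4 codons long, and of 2 such runs the one held by fewer genes is shown, TGNTGNTGNGTN, in the carboxy-terminal thyroglobulin-type domain. It does not overlap the first motif, and 0.329% of the coding sequences held it.
Igfbp2: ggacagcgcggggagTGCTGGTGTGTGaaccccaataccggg
Igfbp3: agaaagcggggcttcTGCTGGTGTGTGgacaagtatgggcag
Igfbp4: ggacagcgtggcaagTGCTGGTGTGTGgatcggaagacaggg
Igfbp5: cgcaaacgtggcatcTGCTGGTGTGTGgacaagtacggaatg
Igfbp6: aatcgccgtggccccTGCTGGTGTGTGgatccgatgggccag
These lie on chr1:72852016-72852057 (plus strand, Igfbp2), chr11:7208449-7208490 (minus strand, Igfbp3), chr11:99051463-99051504 (plus strand, Igfbp4), chr1:72862449-72862490 (minus strand, Igfbp5) and chr15:102149198-102149239 (plus strand, Igfbp6). Igfbp6, which did not help to choose the motif, thus holds the second one but not the first, and the same was true of Igfbp1. The letters of neither motif were in the coding sequence of Igfbp7. Igfbp2 (chromosome 1, 72824503 to 72852474, plus strand) and Igfbp5 (chromosome 1, 72857932 to 72874884, minus strand) face each other tail to tail with 5457 bases between them. Igfbp3 (chromosome 11, 7206086 to 7213923, minus strand) faces Igfbp1 in the same way across 3539 bases.

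The libraries held 18610298 and 22169261 listed reads in STINGECKO 1 and 2, and 21472677 and 20591981 in WT 3 and 5. Tmem173, the gene of STING, had 67 and 182 reads in STINGECKO 1 and 2 and 97 and 130 in WT 3 and 5, so that it did not separate the labels. The count covers the whole gene, and STINGECKO and WT below name the libraries as labelled. The 12 endothelial markers, Cldn5 and Slc2a1 the most abundant, summed to 27235 and 26106 CPM in STINGECKO 1 and 2 and to 26397 and 25749 CPM in WT 3 and 5. CPM here are reads per 1000000 reads of a library, scaled with trimmed-mean (TMM) factors. STINGECKO 2 had 13.2% of the 14100 genes of both tables at 0 reads, against 2.68% in STINGECKO 1, 5.25% in WT 3 and 2.39% in WT 5. STINGECKO 1 had 0 reads of Xist and 3623 of the Y-linked Ddx3y, whereas the other libraries had 876 to 3374 of Xist. STINGECKO 1 was thus the only library with the male pattern, and sex cannot be told apart from the difference between the STINGECKO libraries. Both WT libraries had Xist reads, so sex is also unbalanced between the genotypes. Its part in the genotype comparisons was not tested.

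Of the 6 members listed for every library, 5 overlapped between the genotypes, and none passed the genotype test. Igfbp7 was higher in both STINGECKO libraries than in both WT libraries, at 2.22 times the WT mean. In CPM, which take no account of gene length, Igf1r and Igfbp4 were abundant in every library. Igfbp7, Igfbp3 and Igfbp2 were at middle levels, and Igf1 was low, at 0.550 CPM in STINGECKO 2. Levels per kilobase, which give another order, are given below. The genotype test was edgeR's quasi-likelihood F test (edgeR QL), and its p-values were adjusted by the Benjamini-Hochberg method. It called 0 of 13365 genes (0%), with 650 genes (4.86%) at an unadjusted p under 0.05, and 0 of the 6 members tested. DESeq2 called 87 genes (0.651%), the edgeR likelihood ratio test 33 and limma-voom 0, and none of these 3 called a member. Among the 6 members 3 had a log2 fold change above 0, beside 48.7% of all genes, and their median log2 fold change was 0.10 beside -0.02 for all genes. The genotypes did not overlap in 1 of the 6, beside 34.2% of all genes (15.6% with both STINGECKO libraries higher and 18.6% with both lower).

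**Figure D1:**
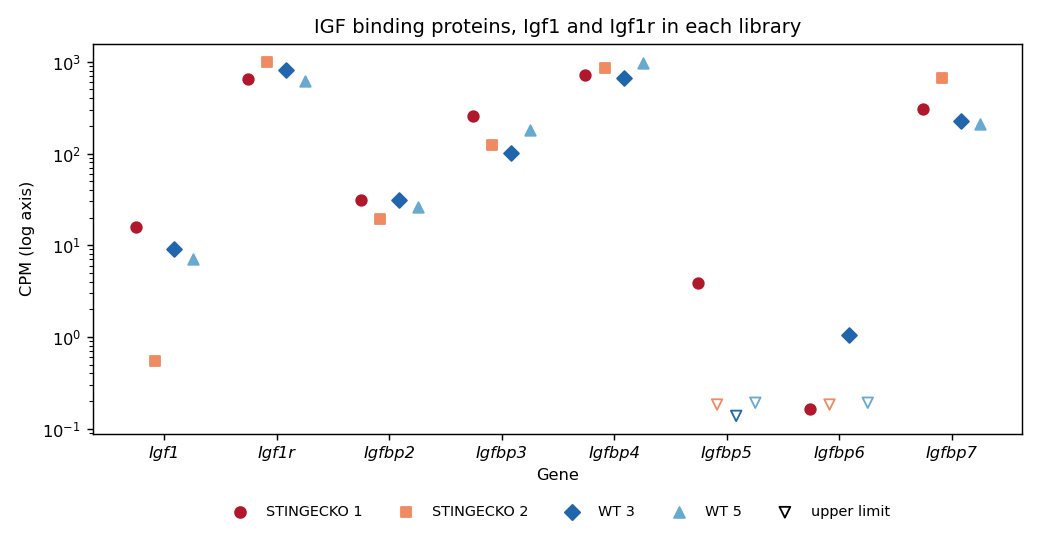
CPM (log axis) of the 8 genes in STINGECKO 1 and 2 and WT 3 and 5, 1 point per library. Open triangles are upper limits, set at 4 reads for a gene with no row in a table and at 3 reads for a listed 0. Igf1r and Igfbp4 lie between 622 and 1003 CPM in every library, and Igf1 is at 0.550 CPM in STINGECKO 2.

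Igf1, the ligand (ENSMUSG00000020053, chromosome 10, 87858265 to 87937042, plus strand), was a low-abundance transcript. It was at 15.7 and 0.550 CPM in STINGECKO 1 and 2, from 288 and 12 reads, and at 9.14 and 7.14 CPM in WT 3 and 5, from 199 and 149 reads. STINGECKO 1 was the highest and STINGECKO 2 the lowest of the 4 libraries, so the WT libraries lay between them. The mean was 8.10 ± 10.7 CPM in STINGECKO and 8.14 ± 1.42 CPM in WT (SD, n = 2 each), and edgeR QL gave a log2 fold change of -0.01 with SE 1.65 and adjusted p = 1.00. Exact 95% binomial intervals, which cover counting error only, were 13.9 to 17.6 CPM in STINGECKO 1 and 0.284 to 0.960 CPM in STINGECKO 2. Without STINGECKO 2 the log2 fold change was 0.94 (SE 0.94), and without STINGECKO 1 it was -3.88 (SE 1.52, unadjusted p = 0.0576, adjusted p = 0.270 by edgeR QL).

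Low values in STINGECKO 2 were common at the level of Igf1. Of 3417 genes with a mean of 5 to 20 CPM in the other libraries, 26.4% were under 10% of that mean in STINGECKO 2, as Igf1 was. The like share was 7.41% for STINGECKO 1, 9.24% for WT 3 and 6.22% for WT 5. The 12 macrophage and microglia markers, all listed, summed to 594 and 433 CPM in STINGECKO 1 and 2 and to 593 and 1591 CPM in WT 3 and 5. Their most abundant members were the complement genes C1qa and C1qb, and Tmem119 had 0 reads in STINGECKO 2. The markers differed in direction. Csf1r, Cx3cr1, C1qb, Mrc1, Lyve1 and Tmem119 were lowest in STINGECKO 2, as Igf1 was. C1qc, Aif1 and P2ry12 were highest there, and C1qa, Pf4 and Ctss were neither. Cx3cr1 was at 5.08 CPM in STINGECKO 2, against 45.9 CPM in STINGECKO 1 and 109 and 91.1 CPM in WT 3 and 5. P2ry12 was at 48.0 CPM in STINGECKO 2, against 23.4 CPM in STINGECKO 1 and 24.3 and 6.61 CPM in WT 3 and 5. Igf1 equalled 2.63% and 0.127% of the summed markers in STINGECKO 1 and 2, and 1.54% and 0.449% in WT 3 and 5. The marker sum was highest in WT 5, where Igf1 was below its level in WT 3 and STINGECKO 1. Csf1r, C1qa, C1qb, Mrc1, Pf4, Lyve1 and Tmem119 were likewise highest in WT 5. Mrc1 was at 256 CPM in WT 5, against 24.2 and 21.0 CPM in STINGECKO 1 and 2 and 21.5 CPM in WT 3. The sum does not stand for each marker. P2ry12 and Ctss were lowest in WT 5, and Cx3cr1, C1qc and Aif1 were at neither extreme there. The part of macrophages and microglia in the level of Igf1 was not tested, and in bulk RNA fewer cells of a type and less RNA per cell cannot be told apart.

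**Figure D2:**
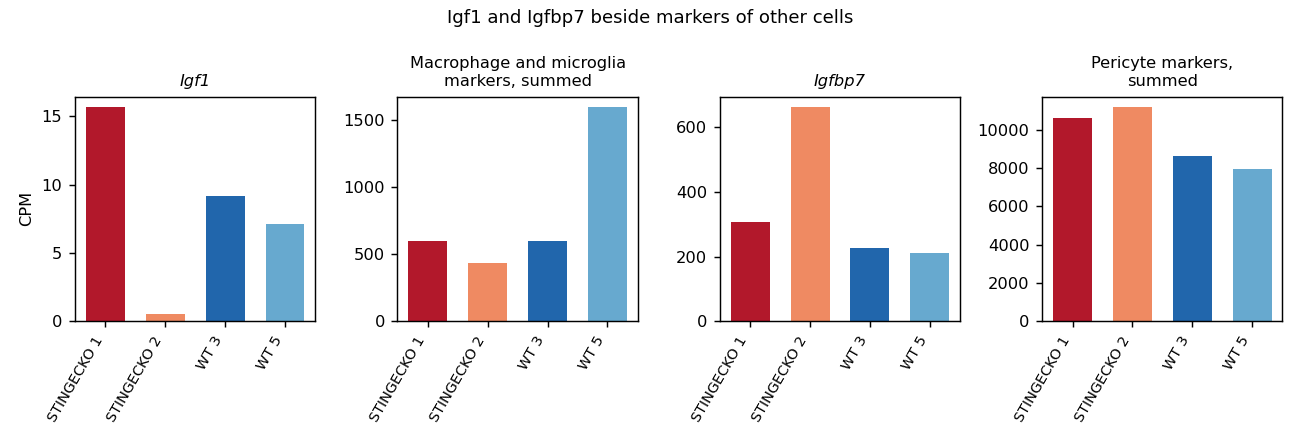
CPM of Igf1, of the summed macrophage and microglia markers, of Igfbp7 and of the summed pericyte markers in STINGECKO 1 and 2 and WT 3 and 5, 1 bar per library on linear axes from 0. The macrophage and microglia sum peaks in WT 5 at 1591 CPM and Igf1 in STINGECKO 1 at 15.7 CPM. Of the genes in that sum, Csf1r, C1qa, C1qb, Mrc1, Pf4, Lyve1 and Tmem119 were highest in WT 5, and P2ry12 and Ctss were lowest there. The pericyte sum is higher in both STINGECKO libraries, as is Igfbp7.

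Igf1r, the receptor (ENSMUSG00000005533, chromosome 7, 67952827 to 68233668, plus strand), was abundant in every library. It was at 657 and 1003 CPM in STINGECKO 1 and 2, from 12083 and 21897 reads, and at 815 and 622 CPM in WT 3 and 5, from 17735 and 12989 reads. STINGECKO 2 was highest and WT 5 lowest, and the genotypes overlapped. The mean was 830 ± 245 CPM in STINGECKO and 719 ± 136 CPM in WT (SD, n = 2 each), and edgeR QL gave a log2 fold change of 0.21 with SE 0.28 and adjusted p = 1.00. The STINGECKO libraries differed 1.53-fold and the WT libraries 1.31-fold, against a 1.16-fold ratio of the genotype means. The sign turned without STINGECKO 2, where the log2 fold change was -0.13, and the value was 0.47 without STINGECKO 1.

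Igfbp7, a vessel-wall protein that binds IGFs weakly (ENSMUSG00000036256, chromosome 5, 77349240 to 77408041, minus strand), had the largest ratio of genotype means among the 6 members tested. It was at 306 and 663 CPM in STINGECKO 1 and 2, from 5626 and 14463 reads, and at 227 and 210 CPM in WT 3 and 5, from 4938 and 4389 reads. Both STINGECKO libraries lay above both WT libraries, and STINGECKO 2 stood far above the other 3. The mean was 484 ± 252 CPM in STINGECKO and 219 ± 11.7 CPM in WT (SD, n = 2 each). The log2 fold change was 1.15 with SE 0.39. By edgeR QL the unadjusted p was 0.0322 and the adjusted p was 0.971, so the difference did not pass. The adjusted p was 0.177 in DESeq2, 0.369 in the edgeR likelihood ratio test and 0.772 in limma-voom, and over the 9 alternatives that kept every library it lay between 0.177 and 1.00.

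The size of the Igfbp7 difference rested on STINGECKO 2. The log2 fold change was 0.49 (SE 0.23) without STINGECKO 2 and 1.59 (SE 0.21) without STINGECKO 1, and 1.20 and 1.09 without WT 3 and without WT 5. The adjusted p was 0.184 without STINGECKO 1 and 1.00 in each of the other 3 edgeR QL fits. Without STINGECKO 1, 19.5% of all genes had an unadjusted p under 0.05 and the median log2 fold change of all genes was -0.20. The STINGECKO libraries differed 2.17-fold from each other and the WT libraries 1.08-fold, while the genotype means differed 2.22-fold.

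The pericyte markers were set beside Igfbp7. The 10 markers, Rgs5 and Kcnj8 the most abundant and none at 0 reads, summed to 10651 and 11188 CPM in STINGECKO 1 and 2 and to 8643 and 7952 CPM in WT 3 and 5, with 9 of 10 above a log2 fold change of 0 and 0 past the test. The sum was higher in both STINGECKO libraries, while the median marker overlapped between the genotypes, at 312 and 232 CPM in STINGECKO 1 and 2 and 235 and 226 CPM in WT 3 and 5. Taken singly, 6 markers were higher in both STINGECKO libraries, 1 was lower in both and 3 overlapped. Of all genes tested, 15.6% were higher in both STINGECKO libraries, 18.6% were lower in both, and 48.7% had a log2 fold change above 0. Igfbp7 equalled 2.87% and 5.92% of that sum in STINGECKO 1 and 2, and 2.62% and 2.64% in WT 3 and 5. Relative to pericyte markers STINGECKO 1 was thus closer to the WT libraries than STINGECKO 2, which stood apart. Relative to the summed endothelial markers Igfbp7 was at 1.12% and 2.54% in STINGECKO 1 and 2, and at 0.859% and 0.817% in WT 3 and 5. The part of pericytes in the level of Igfbp7 was not tested. The exons of Igfbp7 share 85 of 1209 bases with Polr2b on the opposite strand, and the strand setting of the counting is not given in the sources used here, so reads there cannot be told apart if strand was ignored.

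**Figure D3:**
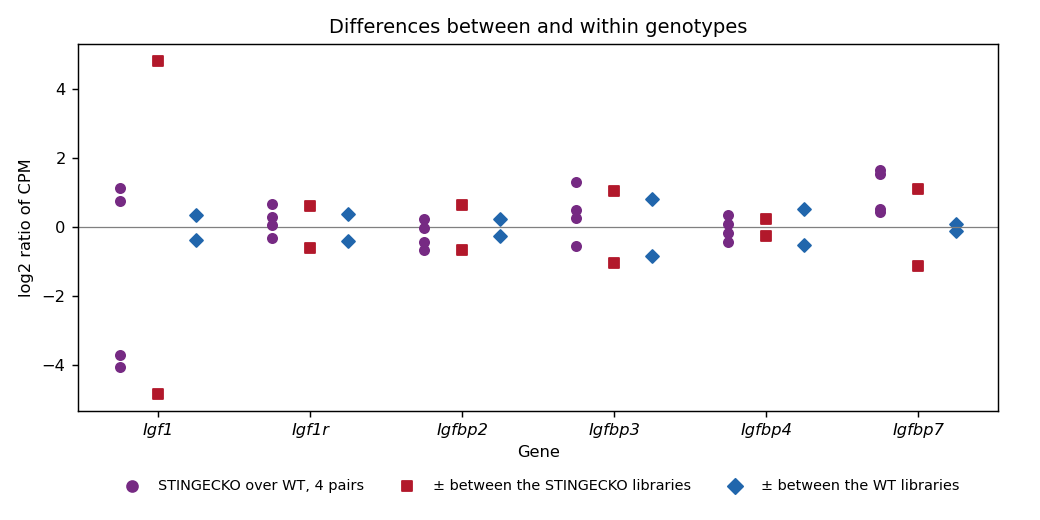
Log2 ratios of CPM for the 6 members listed for every library. Circles are the 4 pairs of a STINGECKO over a WT library, squares the difference between the STINGECKO libraries drawn with both signs, and diamonds that between the WT libraries drawn likewise. All 4 circles of Igfbp7 lie above 0, from 0.43 to 1.66, beside 1.12 between the STINGECKO libraries, and the circles of the other 5 members lie on both sides of 0.

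Igfbp4, an inhibitory binding protein that the protease PAPP-A cuts (ENSMUSG00000017493, chromosome 11, 99041244 to 99054392, plus strand), had the highest mean level in CPM of the members. It was at 722 and 855 CPM in STINGECKO 1 and 2 and at 672 and 964 CPM in WT 3 and 5. Both STINGECKO libraries lay between the WT libraries. The mean was 788 ± 93.7 CPM in STINGECKO and 818 ± 206 CPM in WT (SD, n = 2 each), and edgeR QL gave a log2 fold change of -0.05 with SE 0.24 and adjusted p = 1.00. The sign turned without STINGECKO 1 (0.05) and without WT 5 (0.23).

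Igfbp3, the main IGF carrier of blood plasma (ENSMUSG00000020427), was at 254 and 124 CPM in STINGECKO 1 and 2, from 4681 and 2704 reads, and at 102 and 180 CPM in WT 3 and 5, from 2221 and 3762 reads. STINGECKO 1 was highest, and STINGECKO 2 lay between the WT libraries. The mean was 189 ± 92.4 CPM in STINGECKO and 141 ± 55.3 CPM in WT (SD, n = 2 each), and edgeR QL gave a log2 fold change of 0.42 with SE 0.47 and adjusted p = 1.00. Libraries of a genotype differed 2.05-fold in STINGECKO and 1.77-fold in WT, more than the 1.34-fold ratio of the means. The log2 fold change was -0.20 without STINGECKO 1, 0.85 without STINGECKO 2, 0.07 without WT 3 and 0.89 without WT 5.

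Igfbp2, a binding protein made widely in the fetal brain (ENSMUSG00000039323), was at 30.8 and 19.6 CPM in STINGECKO 1 and 2 and at 31.1 and 26.2 CPM in WT 3 and 5. STINGECKO 2 was lowest, and STINGECKO 1 lay within the WT range. The mean was 25.2 ± 7.96 CPM in STINGECKO and 28.7 ± 3.49 CPM in WT (SD, n = 2 each), and edgeR QL gave a log2 fold change of -0.19 with SE 0.61 and adjusted p = 1.00. The log2 fold change was 0.11 without STINGECKO 2 and -0.56 without STINGECKO 1.

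Igfbp5 and Igfbp6 had at most 4 reads in 3 of the 4 libraries and entered no test. Igfbp5, which binds matrix as well as IGFs (ENSMUSG00000026185), had 71 reads in STINGECKO 1, or 3.86 CPM with an exact 95% interval of 3.01 to 4.87, and 0 reads in WT 3, where a floor of 3 reads allows up to 0.138 CPM. Igfbp6, which prefers IGF2 over IGF1 (ENSMUSG00000023046, chromosome 15, 102144362 to 102149511, plus strand), had 3 reads in STINGECKO 1 and 23 in WT 3, or 0.163 and 1.06 CPM. Neither gene had a row in the table of STINGECKO 2 and WT 5, which means at most 4 reads in each, or up to 0.183 and 0.192 CPM. Each gene was thus seen above 4 reads in 1 library only, Igfbp5 in STINGECKO 1 and Igfbp6 in WT 3.

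Meningeal fibroblasts are known to make Igfbp2 and Igfbp6. Of the 10 fibroblast markers 9 were listed in both tables, and these summed to 349 and 440 CPM in STINGECKO 1 and 2 and to 390 and 305 CPM in WT 3 and 5. Col3a1 and Col1a2 were the most abundant. In STINGECKO 2 the markers Dcn, Ogn and Slc6a13 had 0 reads, and in WT 3 Pdgfra had 0 reads. The part of such cells in the levels of Igfbp2 and Igfbp6 was not tested.

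The range of a member over the 4 libraries was set beside that of genes of like level. Igfbp7 had a highest library 3.15 times its lowest, and 96.2% of 1949 genes at a mean of 100 to 500 CPM had a smaller ratio, with a median of 1.61. Igfbp3, in the same band, had a ratio of 2.49, and 90.3% of genes had a smaller one. Both thus varied more than most genes of their level, and for both the STINGECKO libraries differed from each other, by 2.17-fold for Igfbp7 and 2.05-fold for Igfbp3. The ratio was 1.61 for Igf1r and 1.43 for Igfbp4, in a band of 278 genes at 500 CPM or more with a median of 1.34. Of those genes, 81.3% had a smaller ratio than Igf1r and 66.5% a smaller one than Igfbp4. Igfbp2 had a ratio of 1.59 among 4697 genes at 20 to 100 CPM with a median of 2.28, and 17.9% of those had a smaller one. Igf1 had a ratio of 28.5 among 3368 genes at 5 to 20 CPM with a median of 5.77, and 71.3% had a smaller one.

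**Figure D4:**
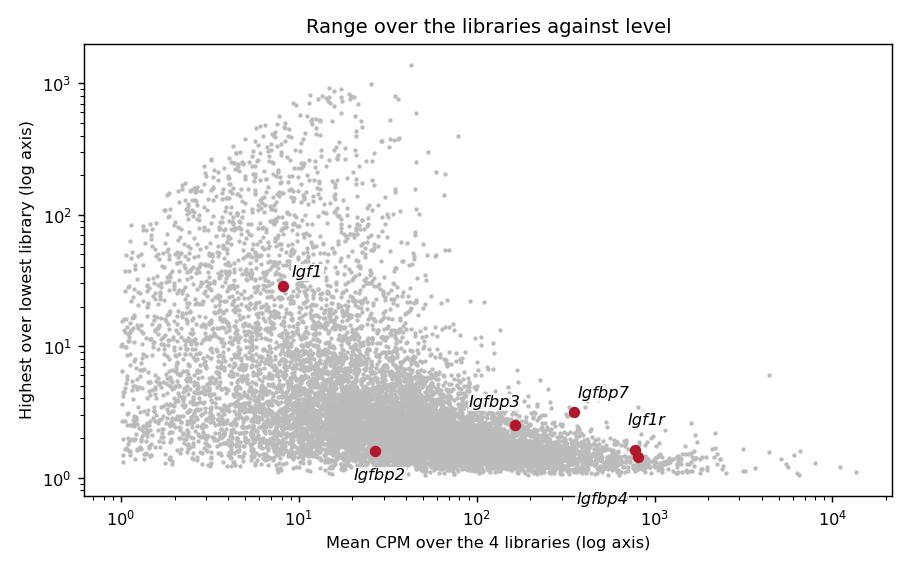
Ratio of the highest to the lowest of the 4 libraries against mean CPM, both on log axes, for the 10992 tested genes at 1 CPM or more with reads in every library (grey; 1782 genes with a library at 0 are not drawn). The 6 members listed for every library are in red. Igfbp7, Igfbp3, Igf1r, Igfbp4 and Igf1 lie above most genes of their level, Igf1 among low genes with wide ranges, and Igfbp2 lies below most.

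Igfbp4 and Igfbp7 made up most of the binding protein reads in every library. Of the reads of Igfbp2 to Igfbp7 together, Igfbp4 held 54.8% and 51.5% in STINGECKO 1 and 2 and 65.1% and 69.8% in WT 3 and 5. Igfbp7 held 23.2% (22.7 to 23.8) and 39.9% (39.4 to 40.4) in STINGECKO 1 and 2 and 22.0% (21.4 to 22.5) and 15.2% (14.8 to 15.7) in WT 3 and 5, with exact 95% binomial intervals in brackets. The share of Igfbp4 was lower in both STINGECKO libraries, while its CPM overlapped between the genotypes. Igfbp3 held 19.3% and 7.46% in STINGECKO 1 and 2 and 9.87% and 13.1% in WT 3 and 5. The summed level of the binding proteins was 1317 and 1660 CPM in STINGECKO 1 and 2 and 1033 and 1381 CPM in WT 3 and 5. These shares count reads, not molecules, and were given no test.

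**Figure D5:**
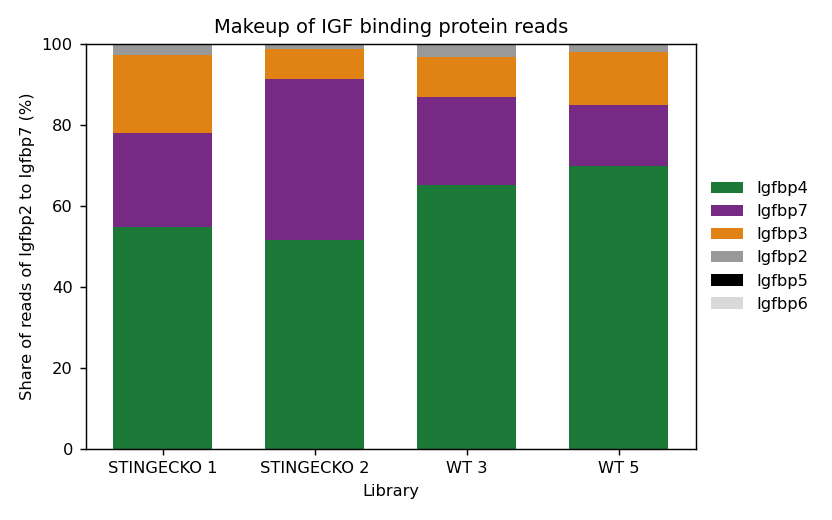
Share of the reads of Igfbp2 to Igfbp7 (percent) held by each gene in STINGECKO 1 and 2 and WT 3 and 5, 1 stacked bar per library. Igfbp7 is widest in STINGECKO 2 at 39.9%, and Igfbp4 holds 51.5% to 69.8% of each bar.

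Per kilobase of annotated exon, the order of mean levels over the 4 libraries was Igfbp7, Igfbp4, Igfbp3, Igf1r, Igfbp2 and Igf1, at 291, 182, 52.8, 46.1, 14.6 and 0.820 CPM per kilobase. The ranges of Igfbp7 and Igfbp4 overlapped, with Igfbp7 above Igfbp4 in 3 of 4 libraries. Those of Igfbp3 and Igf1r overlapped too. Per kilobase of coding sequence Igfbp4 came before Igfbp7, so the order of these 2 depends on the length used. The insulin receptor Insr, the nearest relative of Igf1r, was at 25.9 and 25.9 CPM per kilobase in STINGECKO 1 and 2 and at 27.7 and 36.3 in WT 3 and 5. Igf1r was above it in every library, at 39.1 and 59.7 CPM per kilobase in STINGECKO 1 and 2 and 48.5 and 37.1 in WT 3 and 5. Igf2 exceeded Igf1 in every library, at 46.4 and 43.7 CPM per kilobase in STINGECKO 1 and 2 and 51.4 and 58.1 in WT 3 and 5, where Igf1 was at most 1.58.

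Of 50 other genes of the IGF pathway, 43 were tested and 0 rose or fell by edgeR QL, with 0 at an unadjusted p under 0.05. The log2 fold change was above 0 in 23 and below 0 in 20, with a median of 0.03 beside -0.02 for all genes, and the genotypes did not overlap in 37.2% of them beside 34.2% of all genes. In the list of Igf2, other IGF and insulin receptors and binding protein relatives, all 5 tested genes were below 0, with a median of -0.28. The log2 fold change was above 0 in 4 of 6 proteases and inhibitors (median 0.64), in 3 of 9 adaptors (median -0.17), in 14 of 21 kinases and targets (median 0.05) and in 2 of 2 mRNA-binding proteins (median 0.21). In the first of these lists, Igf2 was at 266 and 250 CPM in STINGECKO 1 and 2 and 294 and 333 CPM in WT 3 and 5 (log2 fold change -0.28, SE 0.20). Insr was at 357 and 356 CPM in STINGECKO 1 and 2 and 380 and 499 CPM in WT 3 and 5 (log2 fold change -0.30, SE 0.22). For both genes the STINGECKO libraries lay below the WT libraries, as in 18.6% of all genes tested, and neither passed. Both were also among the pathway genes with the smallest unadjusted p by edgeR QL. Igf2r, which clears IGF2 into lysosomes, was at 129 and 127 CPM in STINGECKO 1 and 2 and at 162 and 110 CPM in WT 3 and 5.

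Downstream of the receptor, the smallest unadjusted p belonged to Grb14, an adaptor that restrains insulin receptor signalling. It was at 65.1 and 53.5 CPM in STINGECKO 1 and 2 and 30.8 and 34.4 CPM in WT 3 and 5, a log2 fold change of 0.87 (SE 0.43, unadjusted p = 0.0991, adjusted p = 1.00 by edgeR QL). Ptpn11, the phosphatase SHP2, was at 122 and 84.7 CPM in STINGECKO 1 and 2 and 144 and 155 CPM in WT 3 and 5. Rheb, which activates the mTOR complex, was at 385 and 457 CPM in STINGECKO 1 and 2 and 286 and 366 CPM in WT 3 and 5. Rps6kb1, the S6 kinase below mTOR, was at 83.8 and 67.5 CPM in STINGECKO 1 and 2 and 109 and 101 CPM in WT 3 and 5. These 4 genes were named for their small unadjusted p, a choice that favours genes whose genotypes separate. In each of the 4 the genotypes did not overlap, and none passed. Without such a choice, the genotypes did not overlap in 37.2% of the pathway genes tested and 34.2% of all genes.

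The authors' deposited tables compare 1 library with 1 library and carry the authors' own flag for a changed gene, which marks 40.9% of genes between STINGECKO 1 and WT 3 and 52.1% between STINGECKO 2 and WT 5. In the authors' deposited table of STINGECKO 1 and WT 3, 3 of 8 members were marked, namely Igfbp3 and Igfbp5 as higher and Igfbp6 as lower in STINGECKO. The authors' deposited table of STINGECKO 2 and WT 5 marked 2 of 6, Igfbp7 as higher and Igf1 as lower. Of the 6 members in both of the authors' deposited tables, 2 had the same direction in both. These were Igfbp7, with log2 fold changes of 0.39 and 1.61, and Igfbp2, with -0.05 and -0.46. Igfbp3 had 1.28 and -0.58 in the authors' deposited tables and Igf1 0.74 and -3.74, so that each turned direction between the pairs.

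Genes of like pattern were sought by the largest difference in log2 CPM, centred on each gene's mean over the 4 libraries, among genes at a mean of 50 CPM or more. For Igfbp4, the member with the highest mean, the nearest of 4050 genes were C1d, Rps2 and Eef1b2, each within 0.06, and 22 genes lay within 0.1. For Igf1, the member with the widest range, the nearest of 4051 were Spata13 at 0.08, then Kpna3 at 0.44 and Uhrf1bp1l at 0.48. With 4 libraries such likeness is a description only.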

How the data were processed

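RNA of brain endothelial cells was analysed from 2 tables, one of STINGECKO 1 and WT 3 and one of STINGECKO 2 and WT 5. Alignment and counting used TopHat2 2.0.12, Bowtie2 2.2.3 and HTSeq 0.6.0, per the submitters' processing notes, which give mm9. The positions in the tables are nevertheless those of GRCm38 for 89.7% of 17858 genes matched to GENCODE M21 and for every member. Per the file headers, the deposited count columns hold reads per gene. The deposited CPM columns equal the count over the listed total, and 0 reads stand in them as 0.5 read. The deposited fold (ratio) and log2 columns follow from these CPM values. A p-value deposited by the authors sets a single library against another. A gene has a row if each library of the table has a read, or if one is at 0 and its partner at 5 or more, so a gene without a row has at most 4 reads. Symbols of 20 genes altered by a spreadsheet were restored.

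Genotypes were compared on the 14100 genes of both tables with edgeR 4.0.16 (R 4.3.3). Genes passed filterByExpr (minimum count 10), scaling was by TMM, and p-values of the quasi-likelihood F test were adjusted over 13365 genes by Benjamini-Hochberg (threshold 0.05). SE is the size of the log2 fold change over the square root of F. An exact two-sided permutation of 2 against 2 libraries cannot give a p below 0.333, so none was run. Alternatives were DESeq2 1.42.0, limma-voom (limma 3.58.1), the edgeR likelihood ratio test, other scalings, no filter, a block by table, genes of either table, and each library left out in turn. Intervals (95%, exact binomial) and floors (3 reads) cover counting error only. The members and lists were chosen with earlier results of these data known. Besides the members, the rule for named genes took Igf2, Igf2r and Insr, the 6 pathway genes of at least 5 CPM with the smallest p (Igf2 and Insr among them), the 2 most abundant markers of a list and those at 0 reads, and 3 genes of like pattern for each of 2 members. Outside this rule, Tmem173, Xist and Ddx3y are named to check the libraries and Polr2b for its overlap. Of the macrophage and microglia markers, all but C1qa, C1qb and Tmem119 were named after their values were seen. Igfbp1, Igfbpl1, Igf2bp1 and Igf2bp3, all on the pathway list, were likewise chosen after their values were seen.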

Additional observations from a re-analysis of the deposited data

How the results depend on the processing

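The number of genes called was 0 with every library and the quasi-likelihood test under each scaling and filter, with the block by table and with genes of either table, but 87 with DESeq2 and 33 with the edgeR likelihood ratio test. No member and no other pathway gene was called under any of the 13 alternatives. Leaving out 1 library gave 0 calls each time. It moved the log2 fold change of Igf1 between -3.88 and 0.94, of Igf1r between -0.13 and 0.47, of Igfbp2 between -0.56 and 0.11, of Igfbp3 between -0.20 and 0.89, of Igfbp4 between -0.30 and 0.23 and of Igfbp7 between 0.49 and 1.59, so that only Igfbp7 kept its sign in all 4. Reversals were Igf1 without STINGECKO 2 (0.94) and without WT 3 (0.18), Igf1r (-0.13) and Igfbp2 (0.11) without STINGECKO 2, Igfbp3 (-0.20) and Igfbp4 (0.05) without STINGECKO 1, and Igfbp4 without WT 5 (0.23); the cause was not tested beyond the values of those libraries. The median of the members lay between -0.07 and 0.30, and that of all genes was -0.20 without STINGECKO 1. In those fits the spread of the lone library is assumed to be that of the other genotype. With every library kept, no member changed sign, but the log2 fold change of Igf1 was -1.61 in limma-voom and -1.43 with the block by table. Coding length in place of exon length changed the rank of 2 members. The genotypes share no replicate number, so the only pairing is by table, and that block gave 0 calls and a log2 fold change of 1.04 for Igfbp7 (unadjusted p = 0.0438, adjusted p = 1.00 by edgeR). Depth limits Igfbp5 and Igfbp6, which have at most 4 reads in 3 of the 4 libraries.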

Other observations

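Of the other pathway genes tested above, 4 are described here, chosen after their values were seen. Igfbp1, the tail-to-tail neighbour of Igfbp3, had 12 and 63 reads in STINGECKO 1 and 2 and 48 and 31 in WT 3 and 5, or 0.652 and 2.89 CPM and 2.21 and 1.49 CPM. The genotypes overlapped. Igfbpl1, a binding-protein-like gene known from neural progenitors, had 222 and 0 reads in STINGECKO 1 and 2 and 1311 and 414 in WT 3 and 5. Both STINGECKO libraries lay below both WT libraries, as in 18.6% of all genes, and the difference did not pass (log2 fold change -2.73, SE 2.22, adjusted p = 1.00 by edgeR). STINGECKO 2 had 13.2% of the genes of both tables at 0 reads, and the WT libraries differed 3.04-fold for Igfbpl1. The 9 neuron markers listed for every library summed to 71.8 and 42.3 CPM in STINGECKO 1 and 2 and 157 and 107 CPM in WT 3 and 5, and their part in the level of Igfbpl1 was not tested.

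The RNA-binding proteins named for Igf2 mRNA differed in level between libraries of a genotype. Igf2bp1 was at 88.6 and 13.6 CPM in STINGECKO 1 and 2 and at 55.6 and 44.9 CPM in WT 3 and 5. Igf2bp3 was at 74.1 and 131 CPM in STINGECKO 1 and 2 and at 89.1 and 67.5 CPM in WT 3 and 5. STINGECKO 2 was lowest for Igf2bp1 and highest for Igf2bp3.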
